A study of Mus musculus with 6 samples.

Results

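The genes described here encode kinesins, the motor proteins that move along microtubules. They were taken as all listed genes whose symbol is Kif followed by a number and, for some, a letter from a to c, which gave 38 of the 41388 genes in the deposited count files. RNA had been sequenced from EGFP-positive cells sorted out of the dorsal root ganglia, which hold the cell bodies of sensory neurons, of C57BL/6 mouse embryos at 18.5 days post coitum. All libraries came from embryos with a floxed EGFP allele at Ret (RetFloxedEGFP) and Cre recombinase expressed from the Nav1.8 locus (Scn10a), so that EGFP marked cells of the Ret population with a history of Nav1.8-driven Cre. The genotype label of male C gives the Ret allele alone, while its title also names the Cre, and the labels do not say how many copies of the altered Ret allele the embryos carried. The 3 female libraries, A, B and C, each pooled 40 ganglia from 2 embryos. Male A had the same pool size, male B used 60 ganglia of 3 embryos, and male C was a single embryo (20 ganglia). The ganglia were lower thoracic to first sacral. No other cell population was analysed here, so the 6 libraries were read as 1 sorted population and, where a test was possible, as 3 female against 3 male libraries.

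Kinesins use ATP to step along microtubules, most of them towards the plus end. In axons the plus ends point away from the cell body, so transport kinesins carry vesicles, mitochondria, cytoskeletal proteins, receptors and channels outwards, and sensory neurons have among the longest axons of the body. Mitotic kinesins act on the spindle, the chromosomes and the dividing cell's midzone, and most are made in late phases of the cell cycle under promoters that hold the cell cycle genes homology region (CHR), the sequence TTTGAA near the transcription start. The members were grouped by these roles: 15 transport kinesins, 11 mitotic kinesins, 10 kinesins of microtubule ends, cilia or signalling, and 2 others, Kif12 and Kif28.

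Library totals lay between 15693013 reads in male C and 24033601 reads in female B. All 9 neuron marker genes, including Scn10a and Ret, averaged 1 RPKM or more (reads per kilobase of gene length, scaled to library size). They summed to 5499 to 6377 RPKM in female and 6137 to 7478 RPKM in male libraries. But 9 of 10 markers of satellite glia and Schwann cells also averaged 1 RPKM or more. The 10 glial markers summed to 882 to 989 RPKM in female and 977 to 1055 RPKM in male libraries. No marker of any list was at 0 in every library. Of the other marker lists, 5 of 7 fibroblast and meningeal, 2 of 7 endothelial and mural and 3 of 7 blood and immune markers averaged 1 RPKM or more. Their summed levels, in the same order of lists, were 153 to 175, 14.1 to 18.1 and 29.8 to 153 RPKM in female libraries, and 149.8 to 172, 13.3 to 18.9 and 28.8 to 839 RPKM in male libraries. Female C and male B stood apart from the other libraries on the first principal component of all tested genes, at 36.8 and 42.6 against -34.8 to -0.96, and this component held 37.3% of the variance. The GC content of genes moved with this split: across 14938 genes the rank correlation of a gene's deviation from its mean with GC content was 0.54 in female C and 0.48 in male B, against -0.61 to 0.18 in the other libraries.

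Promoter sequences are shown because the CHR sequence separated most mitotic from most transport kinesins. A promoter window, 250 bases before to 50 bases after the transcription start, was found for 31 of the 38 kinesin genes in RefSeq (build GRCm38.p6). The CHR sequence TTTGAA, on either strand, was in the window of 9 of 10 mitotic kinesins and of 1 of 11 transport kinesins. The latter was Kif1a, in its downstream window. The windows of the mitotic Kif2c, Kif14 and Kif4 also lay inside the bounds of the counted gene, with matches at -103, -228 and 20 from the start used. So did that of the transport kinesin Kif17, without a match. The end of the Kif2c window was in no annotated Kif2c transcript. TTTGAA was in 20.2% of all 27025 genes with a window and in 14 of 18 proliferation genes that are not kinesins. Within 30 bases of the start it was found for 7 of 10 mitotic kinesins, 0 of 11 transport kinesins and 3.66% of all genes. The CCAAT sequence, on either strand, was in the windows of 6 of 10 mitotic and 3 of 11 transport kinesins, against 41.1% of all genes. A match is a description of these letters and not a measured binding site. Windows of 4 mitotic and 2 transport kinesins are shown, to let the near-start position be read in Kif11, Kif22 and Kif23, and its absence in Kif18a, Kif3a and Kif5c; capitals mark TTTGAA or its reverse complement TTCAAA.
Kif11 (mitotic, chr19:37376132-37376431, plus strand): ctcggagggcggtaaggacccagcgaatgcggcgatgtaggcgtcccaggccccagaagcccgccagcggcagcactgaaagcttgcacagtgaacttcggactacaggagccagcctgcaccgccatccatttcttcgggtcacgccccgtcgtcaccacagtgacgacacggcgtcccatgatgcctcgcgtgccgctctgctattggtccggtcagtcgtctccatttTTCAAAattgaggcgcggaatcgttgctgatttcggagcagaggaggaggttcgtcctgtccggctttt
Kif22 (mitotic, chr7:127042371-127042670, minus strand): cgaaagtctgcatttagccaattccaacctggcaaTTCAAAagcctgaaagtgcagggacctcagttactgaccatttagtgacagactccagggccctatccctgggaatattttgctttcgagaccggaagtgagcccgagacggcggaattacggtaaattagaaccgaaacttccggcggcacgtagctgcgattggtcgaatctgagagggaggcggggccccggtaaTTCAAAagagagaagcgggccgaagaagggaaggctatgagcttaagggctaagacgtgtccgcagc
Kif23 (mitotic, chr9:61946750-61947049, minus strand): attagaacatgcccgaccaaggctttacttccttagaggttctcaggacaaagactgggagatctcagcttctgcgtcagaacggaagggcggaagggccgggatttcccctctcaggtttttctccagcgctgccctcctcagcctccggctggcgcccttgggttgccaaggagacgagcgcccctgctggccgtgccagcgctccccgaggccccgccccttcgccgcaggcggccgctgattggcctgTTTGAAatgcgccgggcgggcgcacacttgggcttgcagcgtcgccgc
Kif18a (mitotic, chr2:109280488-109280787, plus strand): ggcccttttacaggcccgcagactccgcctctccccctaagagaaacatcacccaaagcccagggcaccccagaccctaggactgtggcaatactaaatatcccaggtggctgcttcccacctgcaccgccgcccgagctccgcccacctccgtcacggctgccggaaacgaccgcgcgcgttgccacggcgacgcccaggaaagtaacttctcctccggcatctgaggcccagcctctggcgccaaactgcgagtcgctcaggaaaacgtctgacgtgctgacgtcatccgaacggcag
Kif3a (transport, chr11:53567119-53567418, plus strand): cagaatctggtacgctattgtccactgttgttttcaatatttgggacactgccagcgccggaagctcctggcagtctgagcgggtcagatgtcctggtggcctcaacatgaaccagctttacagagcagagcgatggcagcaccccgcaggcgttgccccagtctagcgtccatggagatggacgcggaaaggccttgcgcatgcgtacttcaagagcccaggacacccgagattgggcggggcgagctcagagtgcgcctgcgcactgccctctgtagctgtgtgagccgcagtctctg
Kif5c (transport, chr2:49619036-49619335, plus strand): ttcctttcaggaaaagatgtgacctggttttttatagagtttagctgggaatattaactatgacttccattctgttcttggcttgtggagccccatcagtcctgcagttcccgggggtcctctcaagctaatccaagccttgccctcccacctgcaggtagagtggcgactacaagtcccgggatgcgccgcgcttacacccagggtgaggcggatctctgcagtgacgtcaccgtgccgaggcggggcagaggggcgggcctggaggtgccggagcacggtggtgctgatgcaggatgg

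In Kif11, which slides spindle poles apart, the sequence began 19 bases before the start, and in the chromosome-binding motor Kif22 the nearer of its 2 copies began 17 bases before it. In Kif23, a midzone motor needed for the last step of cell division, it began at the third base of the transcript. Kif18a, which trims the ends of spindle microtubules, was the mitotic kinesin with no copy in its window. Median GC content of the windows was 69.3% for transport and 60.2% for mitotic kinesins, against 52.7% for all windows.

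Transport kinesins made up nearly all kinesin RNA of the sorted cells, led by Kif5a, the neuronal heavy chain of conventional kinesin. They held 93.5 ± 0.44% of the summed kinesin RPKM, mitotic kinesins 2.34 ± 0.37% and the microtubule end, cilia and signalling group 4.14 ± 0.20% (SD, n = 6 libraries). All kinesin genes together took 0.466 ± 0.019% of reads. A level of 1 RPKM or more was reached by 20 of the 38 members (52.6%), against 28.0% of all genes. Reads were present in every library for 35 members, and Kif2b had no read in any library. In bulk samples, fewer cells of a type and less RNA per cell cannot be told apart. These levels may also include RNA of non-neuronal cells, whose markers are given above.

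**Figure D1:**
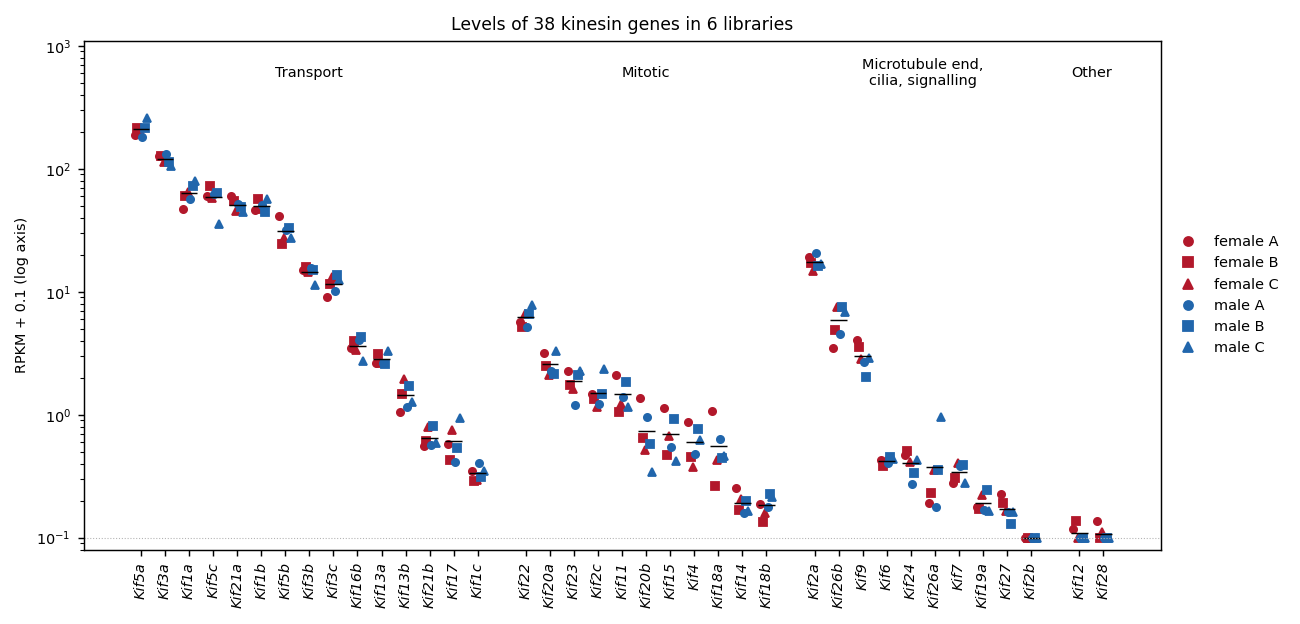
Level of each of the 38 kinesin genes (RPKM + 0.1, log axis) in each library, by role group and ordered by mean; symbols mark the library and horizontal bars the mean of the 6. Transport kinesins run from Kif5a at 209.8 to Kif1c at 0.234 RPKM, mitotic kinesins from Kif22 at 6.10 to Kif18b at 0.0833 RPKM, and points at the dotted line are levels of 0.

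The contrast between the groups held in each library. The summed transport level was 603, 645 and 594 RPKM in female A, B and C, against 602, 626 and 638 RPKM in male A, B and C. The summed mitotic level was 18.5, 12.9 and 14.03 RPKM in the female, against 13.1, 16.3 and 18.1 RPKM in the male libraries. The ratio of the sums was thus 40.8 ± 6.59, between 32.6 in female A and 50.2 in female B. It depends on the grouping: Kif2a, a relative of the mitotic Kif2c placed in the microtubule end group, averaged 17.4 ± 2.15 RPKM. The mitotic kinesins together averaged 15.5 ± 2.48 RPKM. The median over members of log2(RPKM + 0.1) was 3.88 ± 0.13 for transport and -0.26 ± 0.44 for mitotic kinesins, a difference of 4.14 ± 0.41 log2 units (SD, n = 6), where the median over all tested genes was 1.98 ± 0.045. The transport median lay above, and the mitotic median below, that of all tested genes in 6 of 6 libraries. Tested genes are those that passed the filter on low counts. Over all 41388 genes, 15585 of them without a read, the median was -3.10 ± 0.13, below that of both groups. The groups still overlapped gene by gene: 12 of 15 transport and 5 of 11 mitotic kinesins averaged 1 RPKM or more. Since the lists were chosen with earlier results known, no test was made of this difference.

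**Figure D2:**
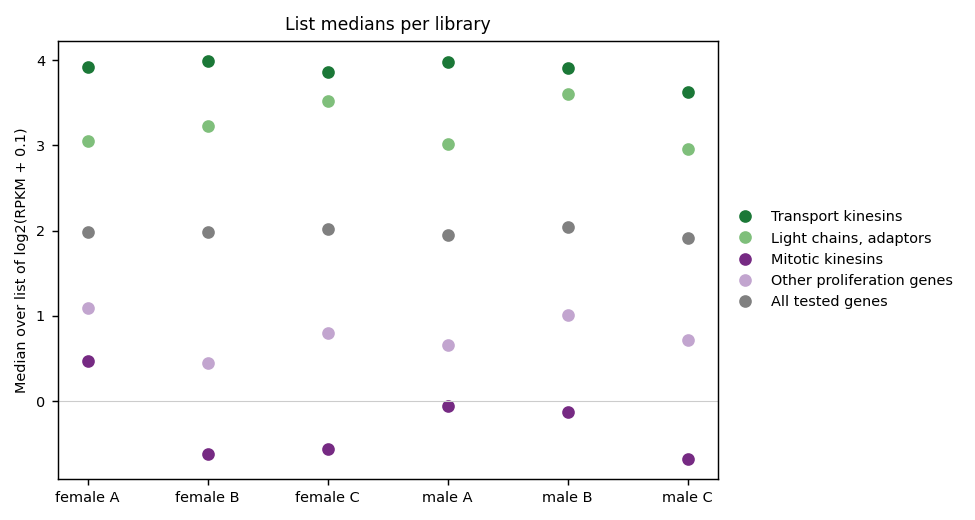
Median over each list of log2(RPKM + 0.1) in each library. Transport kinesins lie between 3.63 and 3.99, above all tested genes (1.92 to 2.04), and mitotic kinesins between -0.68 and 0.46, below the other proliferation genes in each library.

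Among the heavy chains of conventional kinesin, which carry vesicles and mitochondria, Kif5a was highest. Kif5a (ENSMUSG00000074657, chromosome 10, 127225696 to 127263363) had 189, 214 and 201 RPKM in female A, B and C, against 183, 214 and 258 RPKM in male A, B and C. Its mean of 209.8 ± 26.7 RPKM ranked at 245 among the 41388 genes, within the top 0.592%. Kif5c (ENSMUSG00000026764, chromosome 2, 49619298 to 49774778), the other heavy chain with mainly neuronal expression, had 60.4, 72.4 and 58.04 RPKM in the female, against 62.01, 63.1 and 35.4 RPKM in the male libraries. Male C was the low library for Kif5c and the high one for Kif5a, so that the Kif5a to Kif5c ratio was 7.28 there and 2.95 to 3.47 in the others. Kif5b, the broadly expressed heavy chain, which has been reported to carry the Nav1.8 channel in rodent sensory neurons, had 41.4, 24.3 and 27.1 RPKM in the female, against 31.6, 33.02 and 27.5 RPKM in the male libraries. Per length, Kif5a made up 69.9 ± 5.49%, Kif5c 19.7 ± 4.41% and Kif5b 10.4 ± 2.32% of the heavy chain RNA (SD, n = 6). Kif5a lay above Kif5c, and Kif5c above Kif5b, in 6 of 6 libraries.

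The kinesin light chains, which bind cargo for these motors, were led by Klc1 at 102 ± 46.3 RPKM, or 88.3 ± 1.27% of the light chain RNA. Klc1 was high in the libraries that stood apart by GC content, at 156 RPKM in female C and 166 RPKM in male B, against 65.2 to 76.3 RPKM in the others. The summed light chain level moved with it, from 72.8 RPKM in female A to 187 RPKM in male B. The summed Kif5 level stayed between 276 and 321 RPKM. The part of GC content in the light chain levels was not tested.

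Kinesin-2 motors, which carry vesicles in axons and build cilia as trimers of Kif3a, Kif3b or Kif3c, and the accessory subunit Kifap3, were unequal in RNA. Kif3a (ENSMUSG00000018395, chromosome 11, 53567379 to 53601967) had 128, 127 and 114 RPKM in female A, B and C, against 132, 113 and 105 RPKM in male A, B and C. Kifap3 lay close to it, at 117 ± 26.3 RPKM, with a Kif3a to Kifap3 ratio of 1.05 ± 0.16. The partner motors were far lower, Kif3b at 14.5 ± 1.67 and Kif3c at 11.6 ± 1.79 RPKM. Kif3a exceeded Kif3b by 8.30 ± 0.61 times and the sum of Kif3b and Kif3c by 4.62 ± 0.54 times, in 6 of 6 libraries (SD, n = 6). In Kif3c, 38.2% of the counted length overlapped exons of 1110002L01Rik on the opposite strand, which averaged 1.24 RPKM. Whether strand was used in counting is not stated in the sources used here, so reads of such partners cannot be told apart. Kif17, a single-chain relative that carries receptors in dendrites and works in cilia, had 0.508 ± 0.203 RPKM and was highest in male C at 0.837 RPKM.

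**Figure D3:**
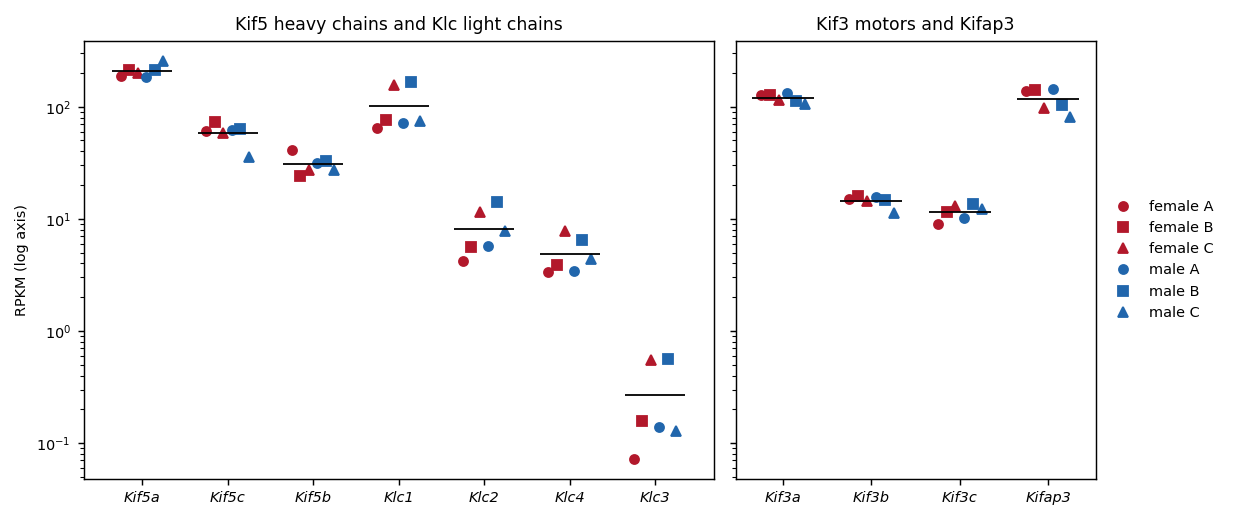
Levels in RPKM (log axis) of the Kif5 heavy chains and their light chains, left, and of Kif3 motors with their accessory subunit Kifap3, right; symbols mark the library and bars the mean of the 6. Kif3a and Kifap3 lie near each other at 120 and 117 RPKM, Kif3b and Kif3c near 15 and 12 RPKM, and the light chains are highest in female C and male B.

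Kinesin-3 motors, fast carriers of synaptic vesicle precursors and dense core vesicles, included a pair of abundant genes and one of low level. Kif1a (ENSMUSG00000014602, chromosome 1, 93015464 to 93101951), which has been shown to carry the nerve growth factor receptor TrkA in mouse sensory neurons, had 47.4, 59.9 and 64.8 RPKM in the female, against 56.9, 71.8 and 80.2 RPKM in the male libraries. Kif1b (ENSMUSG00000063077, chromosome 4, 149176319 to 149307693), with isoforms for mitochondria and for synaptic vesicle precursors, had 46.1, 56.5 and 46.9 RPKM in the female, against 50.4, 44.5 and 56.4 RPKM in the male libraries. Female A was the low library for Kif1a and male C the high one, while Kif1b stayed within a narrower band. Kif1a exceeded Kif1b in 6 of 6 libraries, but their ranges overlapped and the ratio was 1.27 ± 0.23 (SD, n = 6). This order depends on the counted lengths, 9330 bases for Kif1a and 17608 for Kif1b. Before scaling by length Kif1b was higher in each library, with 18.9% of kinesin reads against 12.7% for Kif1a. Kif1c, a broadly expressed relative that moves between Golgi and cell periphery, was the lowest transport kinesin at 0.234 ± 0.042 RPKM. Kif1b exceeded it by 220.1 ± 45.4 times. Of the other members, Kif16b, an endosome motor, averaged 3.54 ± 0.56 RPKM and Kif13a, which carries the mannose 6-phosphate receptor, 2.71 ± 0.31 RPKM. Kif13b, which has been reported to carry the capsaicin receptor TRPV1, averaged 1.34 ± 0.35 RPKM.

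Kif21a (ENSMUSG00000022629, chromosome 15, 90933276 to 91049948), a kinesin-4 motor that restrains microtubule growth and whose human form is mutated in congenital fibrosis of the eye muscles, was abundant. It had 59.6, 54.4 and 45.5 RPKM in the female, against 51.6, 49.1 and 44.1 RPKM in the male libraries. Its paralog Kif21b averaged 0.552 ± 0.114 RPKM, lower than Kif21a by 95.8 ± 25.4 times (SD, n = 6). In the order of levels, Kif5a lay above Kif3a, and Kif3a above Kif1a, in 6 of 6 libraries with ranges that did not overlap. The place of Kif3a depends on the counted lengths, 3586 bases against 9330 for Kif1a and 17608 for Kif1b. Before scaling by length Kif3a held 9.21% of kinesin reads, less than Kif1a at 12.7% and Kif1b at 18.9%. Kif5a was still first, at 28.4%. The next genes, Kif1a, Kif5c, Kif21a and Kif1b, had overlapping ranges: Kif1a exceeded Kif5c in 3 of 6 libraries, Kif5c exceeded Kif21a in 5 of 6, and Kif21a exceeded Kif1b in 3 of 6. All of them lay above Kif5b in each library.

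Mitotic kinesins were low but each was read in every library. Kif22 (ENSMUSG00000030677, chromosome 7, 127027732 to 127042420), which pushes chromosome arms to the spindle equator, was highest, with 5.59, 5.08 and 6.55 RPKM in the female, against 5.10, 6.54 and 7.77 RPKM in the male libraries. Kif20a, a midzone motor of cell division, had 3.05, 2.38 and 2.01 RPKM in the female, against 2.17, 2.03 and 3.17 RPKM in the male libraries. Of its counted length, 33.2% overlapped exons of Cdc23 on the opposite strand, and Cdc23 averaged 13.5 RPKM, so the Kif20a level is uncertain. Without Kif20a the ratio of summed transport to summed mitotic RPKM was 48.7 ± 8.40. Kif23 (ENSMUSG00000032254, chromosome 9, 61917280 to 61946799) had 2.15, 1.65 and 1.52 RPKM in the female, against 1.09, 2.01 and 2.18 RPKM in the male libraries. Kif11 (ENSMUSG00000012443, chromosome 19, 37376403 to 37421859) had 2.00, 0.96 and 1.12 RPKM in the female, against 1.29, 1.76 and 1.05 RPKM in the male libraries. Kif2c, which takes microtubules apart at centromeres, had 1.39, 1.24 and 1.06 RPKM in the female, against 1.12, 1.38 and 2.25 RPKM in the male libraries. None of these 5 genes kept female and male libraries apart.

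The other 6 mitotic kinesins averaged less than 1 RPKM. Kif20b, Kif15, the X-linked chromosome motor Kif4 and Kif18a averaged between 0.639 and 0.453 RPKM, and Kif14 and Kif18b lay at 0.0919 and 0.0833 RPKM. Kif18a (ENSMUSG00000027115, chromosome 2, 109280738 to 109341747) had 153, 39 and 77 reads in the female, against 115, 82 and 53 reads in the male libraries. Kif14, which acts in the closing cleft between daughter cells, had 25, 17 and 26 reads in the female, against 13, 24 and 10 reads in the male libraries. Kif18b, a partner of Kif2c at microtubule ends, had 5, 3 and 5 reads in the female, against 6, 11 and 6 reads in the male libraries, too few to order the libraries. In Kif4, 15.1% of the counted length overlapped exons of Pdzd11 on the opposite strand, which averaged 38.9 RPKM.

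Female A was high for most mitotic kinesins. There 9 of the 10 tested members lay above their own mean of log2(CPM + 0.5). The count was 0 in female B, 3 in female C, 2 in male A, 7 in male B and 5 in male C. Among all 32 tested kinesins the count was 19 in female A and 11 to 20 in the others. The share of all tested genes was not examined. The summed mitotic level hardly set female A apart, at 18.5 RPKM against 18.1 RPKM in male C. Kif2c exceeded its mean by only 0.023 in female A and 0.015 in male B. By RPKM it lay below its mean of 1.41 in both, at 1.39 and 1.38. Kif18a stood at 0.981 RPKM in female A and 0.162 to 0.535 RPKM in the other libraries, and Kif20b at 1.28 against 0.242 to 0.863 RPKM. For the proliferation and glial lists the mean was that of RPKM, a scale unlike that of the kinesin tally. Of the 22 proliferation genes that are not kinesins, 17 lay above their own mean in female A. So did 17 in male B, against 3 to 10 in the other libraries. Female A was the highest library for 11 of them, such as Mki67 at 0.851 RPKM against 0.114 to 0.381 RPKM, and the lowest for 1, Aurkb, at 0.749 RPKM against 0.962 to 2.07 RPKM. These 22 genes summed to 49.3 RPKM in female A and 36.3 to 45.7 RPKM in the others. The glial gene Cdh19 was highest in female A, at 7.78 RPKM against 2.25 to 3.02 RPKM in the others, but only 3 of the 10 glial markers lay above their own mean there, and the summed level of the 10 glial markers was 909 RPKM there and 882 to 1055 RPKM in the others. Female A was 1 of the 2 shallowest libraries and had the lowest GC trend. The part of glial cells, depth or GC content in the female A pattern was not tested.

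**Figure D4:**
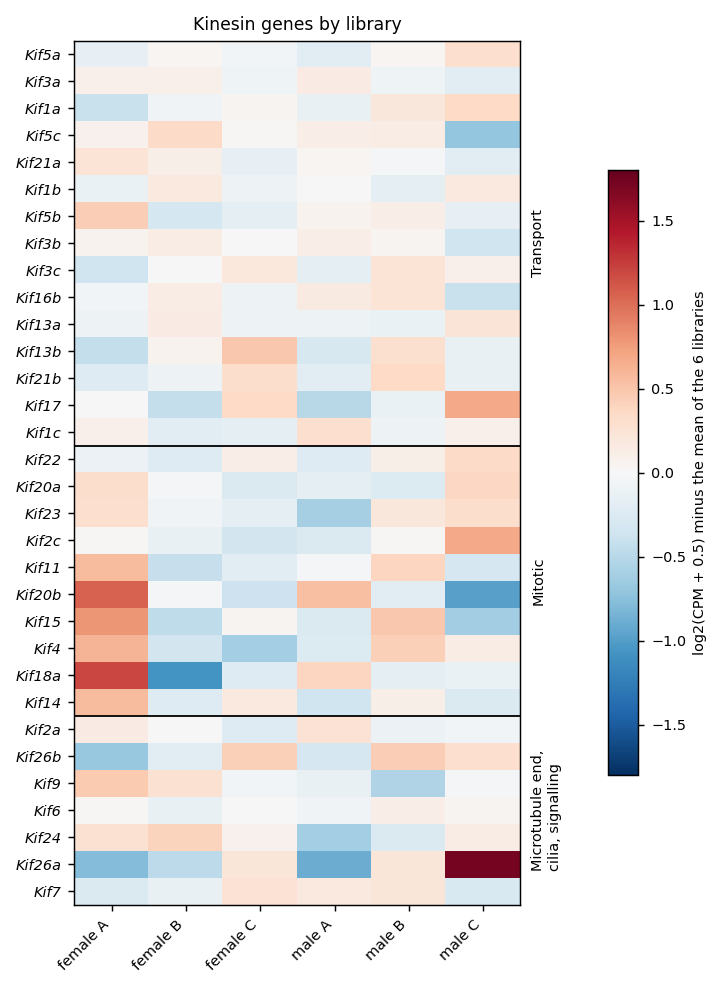
Deviation of each of the 32 tested kinesin genes from its mean over the 6 libraries, in log2(CPM + 0.5), by role group. Mitotic kinesins are mostly red in female A, where Kif18a lies 1.20 above its mean, and the darkest cell is Kif26a in male C at 1.72.

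In the remaining group, Kif2a, which disassembles microtubules and is needed for the pruning of sensory axons in mice, was highest. Kif2a (ENSMUSG00000021693, chromosome 13, 106958996 to 107022126) had 19.1, 17.2 and 14.7 RPKM in the female, against 20.6, 16.01 and 16.7 RPKM in the male libraries, and 17.4% of its counted length overlapped exons of Dimt1, which averaged 6.64 RPKM. It exceeded its mitotic relative Kif2c by 13.1 ± 3.58 times, while Kif2b had no read, which allows up to 0.191 CPM in male C, the shallowest library, for counting error only. The cilia motors Kif9, Kif6, Kif7, Kif19a and Kif27 averaged 2.92 ± 0.72, 0.321 ± 0.024, 0.239 ± 0.058, 0.0915 ± 0.034 and 0.0724 ± 0.034 RPKM, and the centriole kinesin Kif24 averaged 0.304 ± 0.088 RPKM (SD, n = 6). The last group members, Kif26a and Kif26b, lack the ATPase activity of other kinesins. Kif26b, known from Wnt5a signalling, averaged 5.74 ± 1.74 RPKM, and Kif26a, which restrains signalling from Ret in mouse enteric neurons, averaged 0.278 ± 0.294 RPKM. Kif12 and Kif28, placed in none of these groups, had at most 3 reads in any library, with 0 in all 3 male libraries.

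Kif26a (ENSMUSG00000021294, chromosome 12, 112146208 to 112181747) varied more than any other tested kinesin. It had 10, 22 and 42 reads in female A, B and C, against 12, 42 and 88 reads in male A, B and C, or 0.0911, 0.130 and 0.255 RPKM in the female, against 0.0793, 0.253 and 0.856 RPKM in the male libraries. Its biological coefficient of variation, the spread beyond counting error, was 0.60 in the edgeR fit, where the median over the 32 tested kinesins was 0.26 and over all tested genes 0.24. The median was 0.20 for the 15 transport and 0.32 for the 10 tested mitotic kinesins. The lowest value among kinesins was 0.16, for Kif3a. These groups also differed in level, and the part of level in the order of the coefficients was not tested.

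Between female and male libraries no tested kinesin gene passed the test. Of the 38 members 32 passed the filter on low counts, and 0 were called by edgeR's quasi-likelihood test at an adjusted p of 0.05, where 0.0333% of all 15026 tested genes were called, 0.00666% higher and 0.0266% lower in female libraries. At an unadjusted p below 0.05 there were 0 of 32 kinesins, against 1.1% of all genes. DESeq2 and limma-voom also called 0 kinesins, against 7 of 15023 and 6 of 15026 tested genes. No kinesin had female and male libraries that did not overlap, where 3.17% of all tested genes lay apart with female higher and 2.53% with female lower. The log2 fold changes, female over male, ran from -1.26 to 0.59 with a median of -0.017, and 14 were positive and 18 negative. When counts were simulated for this comparison, edgeR found 42 of the 100 genes given a 2-fold change and 96 of the 100 given a 4-fold change. There were 10 false calls among 14776 genes. Counts were drawn for each gene on its own, without a trend shared across genes such as the GC split. Genes of very low level were not among those changed. These rates may therefore not hold for the real libraries.

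**Figure D5:**
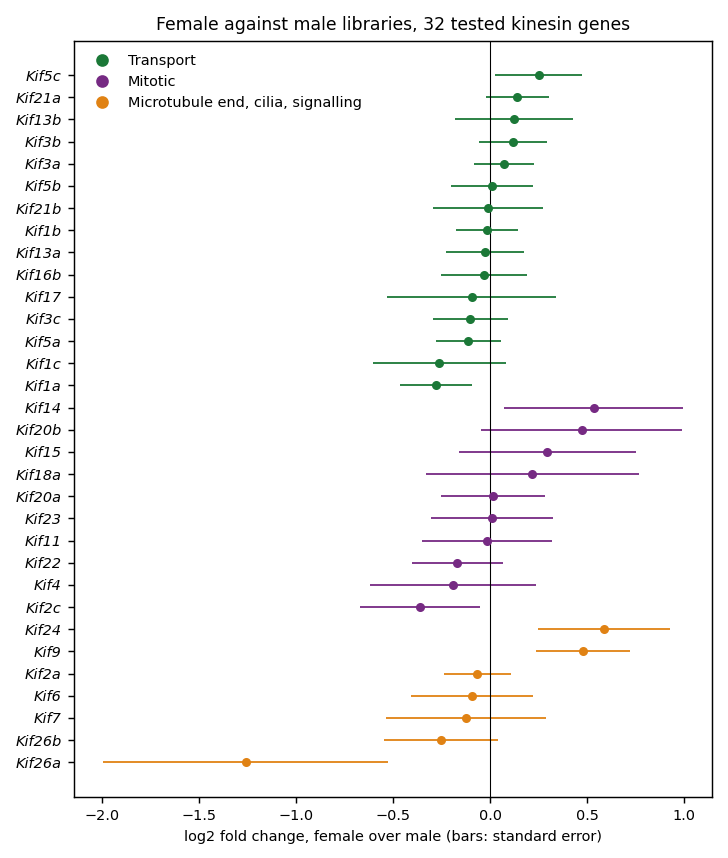
log2 fold change, female over male, with its standard error for the 32 tested kinesin genes, by role group. Values lie between -1.26 (Kif26a) and 0.59 (Kif24), and no gene passed the edgeR test.

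The 5 kinesins of smallest p are given with their spread. Kif9, a motor of sperm tails and motile cilia, had 3.98, 3.48 and 2.74 RPKM in female A, B and C, against 2.59, 1.93 and 2.82 RPKM in male A, B and C, and the ranges overlapped. The estimate was 0.48 log2 units, female over male (standard error 0.24; edgeR adjusted p = 0.99968). Kif24, at 0.370, 0.409 and 0.314 RPKM in the female, against 0.171, 0.234 and 0.328 RPKM in the male libraries, had an estimate of 0.59 (standard error 0.34). For Kif1a and Kif2c the log2 fold changes were -0.28 and -0.36, with standard errors of 0.18 and 0.31. Kif26a had the largest estimate, -1.26 with a standard error of 0.73. Several of these estimates rested on single libraries. Without male C they were -0.055 for Kif26a, -0.028 for Kif2c and -0.17 for Kif1a. Without female A Kif1a was at -0.16, and without male A Kif2c was at -0.56 and Kif24 at 0.38. With all libraries none was called (edgeR adjusted p of each of these genes, 0.99968). The X-linked Kif4 stood at 0.766, 0.356 and 0.274 RPKM in the female, against 0.381, 0.666 and 0.525 RPKM in the male libraries, and the estimate was -0.19 (standard error 0.43).

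Genes that work with kinesins were measured alongside. Of 18 light chain and adaptor genes, 17 were tested between the sexes and 0 were called by edgeR, DESeq2 or limma-voom. Of all tested genes these tools called 5 of 15026, 7 of 15023 and 6 of 15026. An unadjusted p below 0.05 was reached by 0 of the 17 in each, against 166, 141 and 152 of all tested genes. The median log2 fold change of the 17 was -0.017. Of the 18 genes, 16 averaged 1 RPKM or more. They were led by the adaptor Fez1 at 193 ± 25.2 RPKM, the small GTPase gene Arl8b, which links lysosomes to kinesins, at 128 ± 17.0 RPKM, Kifap3 and Klc1, and the lowest was Klc3 at 0.267 ± 0.223 RPKM. The gene of smallest p was Trak2, a mitochondrial adaptor, at 0.23 log2 units, female over male (standard error 0.17). Among motors of the kinesin superfamily with other symbols, Kifc2, a motor of neurons that moves towards the minus end, averaged 6.51 ± 2.97 RPKM. It had 10.6 RPKM in female C and 10.0 RPKM in male B, against 4.26 to 4.81 RPKM in the other libraries, the same libraries that were high for Klc1. Kifc3, which also moves towards the minus end, averaged 0.598 ± 0.215 RPKM. The mitotic motors Cenpe, Kifc1 and Kifc5b averaged 0.396 ± 0.129, 0.0733 ± 0.050 and 0.0630 ± 0.052 RPKM, and the last of these is a close copy of Kifc1, so that their reads may be shared.

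Reads could also have been shared between kinesins. Of the 50-base sequences in annotated transcripts, at most 10 of any member occurred in a transcript of another member, for Kif18a, and Kif5a and Kif5c shared none with any other gene. The members with the largest share in another gene were Kif3c (39.6%), Kif20a (25.2%), Kif2a (19.6%), Kif7 (16.1%) and Kif4 (14.5%), in each case mostly with the partner on the opposite strand.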

How the data were processed

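RNA was measured in 6 libraries of sorted cells. The submitters' processing notes name featureCounts 1.4.5 (Subread) and the genome build GRCm38.p2. Aligner, annotation release, strand setting and the handling of multiply matching reads are not stated in the sources used here. Per the labels' protocols, 10 ng of total RNA was amplified with a SMARTer low-input kit. The authors deposited for each gene raw read counts and the CPM and RPKM made from them, with exon coordinates and a gene length. The deposited CPM and RPKM values equalled those recomputed from the deposited counts and lengths within 1e-06. Levels were recomputed from the counts with TMM library sizes. Symbols came from GENCODE M21 by Ensembl identifier (40254 of 41388 matched), and Kifbp was found under the older symbol Kif1bp through RefSeq synonyms. The sources do not say that same-letter libraries shared a litter or day. The p-values set the sex difference against the spread between these libraries, which held 2 or 3 pooled embryos or 1 embryo. They do not address the spread between single embryos, and the unequal pools were not modelled.

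Genes were filtered with filterByExpr and tested, female against male, with edgeR 4.0.16 (glmQLFit, glmQLFTest, R 4.3.3), two-sided, with Benjamini-Hochberg adjustment over 15026 genes at 0.05. Alternatives used DESeq2 1.42.0 and limma 3.58.1 (voom). List levels were medians of log2(RPKM + 0.1), a scale that understates differences of low genes. The fit was tested on simulated data with 200 changed genes. Overlaps were taken from the deposited exons. GC content, available for 99.4% of tested genes, was that of the longest annotated transcript. The members, lists, tests and rule for named genes were chosen with earlier results of these data known. By that rule values in every library are given for the 6 highest transport kinesins, the mitotic kinesins averaging 1 RPKM or more and the 3 lowest, Kif26a and Kif2a; for sex the 5 kinesins of smallest p; of partner lists the 4 highest, the lowest and the one of smallest p. Per-library values of Kif5b, Kif4 and the partner genes were added after they were seen. The limit from a count of 0 (3 reads of the total, 95% level) covers counting error only.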

Additional observations from a re-analysis of the deposited data

Results flagged for a closer look

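Each tested kinesin and 4 list summaries, 36 values in all, were examined for a library far from the other 5, by the gap to the nearest library divided by the range, with a critical ratio of 0.625. Such a gap arises by chance in about 1 in 20 groups. It was found for 4 values, each time at male C, the library from 1 embryo. Kif26a was highest there, with 88 reads against 10 to 42 in the others, and a ratio of 0.774. Kif2c was also highest there, at 2.25 RPKM against 1.06 to 1.39, with a ratio of 0.725. Kif3b was lowest there, at 11.3 RPKM against 14.4 to 15.8, with a ratio of 0.693. The transport median was lowest there, at 3.63 against 3.86 to 3.99 log2 units, with a ratio of 0.638. This median is the level of the middle gene, Kif3b in the other libraries and Kif3c in male C. It is thus not separate from the Kif3b gap. The summed transport level of male C was 638 RPKM, within the 594 to 645 RPKM of the other libraries. Male C was the shallowest library, with 15693013 reads. In female A, from 2 embryos and with 15807666 reads, Kif26a had 10 reads, Kif2c 1.39 RPKM and Kif3b 15.02 RPKM. The transport median of female A was 3.92. The part of depth, embryo number or GC content in the male C values was not tested.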

How the results depend on the processing

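The transport minus mitotic difference of 4.14 log2 units stayed positive under each alternative tried. It moved to 3.16 with a pseudocount of 1, 3.57 with the mean over members, 5.71 without members of less certain role (Kif17, Kif16b and Kif13a of transport, Kif22 and Kif20b of mitotic kinesins), and 4.73 without members that overlap another gene's exons by 5% or more, an alternative chosen after the data were examined. The transport median moved to 3.39 with the mean, 5.22 without members of less certain role and 4.39 without overlapping members. The mitotic median moved to 0.81 with a pseudocount of 1. In log2(CPM + 0.1), a unit not scaled by length, the transport median was 6.46 and the mitotic median 2.07. These 2 values are on another scale, and the difference of the medians was 4.39 there. Leaving out each library in turn gave differences of 4.05 to 4.28, transport medians of 3.86 to 3.93 and mitotic medians of -0.41 to -0.18. RLE and deposited RPKM values moved none of the 3 by more than the spread between libraries. Placing Kif2a with the mitotic kinesins, or Kif21a outside the transport kinesins, was not tried.

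The count of kinesins called between the sexes was 0 under each alternative tried, and that of all genes was 5, 12 with no filter, 7 with DESeq2, 6 with limma-voom and 5 with each library left out in turn. With the letter as a replicate block it was 5 for all genes and 0 for kinesins, and the letters did not pair the libraries: deviations of same-letter libraries correlated at 0.284, -0.294 and -0.077 for A, B and C, while female C and male B correlated at 0.549. The 5 kinesins of smallest p kept their direction and were not called under any of 12 alternatives each, with the smallest adjusted p at 0.7818. An unadjusted edgeR p below 0.05 was reached by Kif26a in 3 alternatives and by Kif24 and Kif9 in 1 each. The alternatives refit all or most of the same libraries, so a kept direction is not independent support. Kif26a ranged from -1.78 without female C to -0.055 without male C. With 3 libraries per sex, changes of 2-fold or less would often be missed, and members with few reads, such as Kif14 and Kif18b, are limited by depth.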

Other observations

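Genes of cytoplasmic dynein and dynactin, the motor that carries cargo back towards the cell body, were abundant as a group. All 24 genes of this list averaged 1 RPKM or more, with a median of 109 RPKM, against 14.5 RPKM for the 15 transport kinesins and 3.93 RPKM for all tested genes. The list was led by the light chain genes Dynlrb1 at 436 ± 38.5, Dynll1 at 215 ± 41.8 and Dynlt3 at 205 ± 44.96 RPKM, and by the dynactin gene Dctn3 at 184 ± 23.4 RPKM (SD, n = 6). The motor subunit itself, Dync1h1, averaged 21.8 ± 2.56 RPKM, and Kif5a exceeded it by 9.65 ± 0.82 times. The lowest member was the adaptor Bicd1 at 6.64 ± 1.87 RPKM. Between the sexes, 0 of the 24 were called by edgeR, DESeq2 or limma-voom. Of all tested genes these tools called 5 of 15026, 7 of 15023 and 6 of 15026. An unadjusted p below 0.05 was reached by 0 of the 24 in each, against 166, 141 and 152 of all tested genes. Within the list, the smallest edgeR p belonged to Dync1li2, a light intermediate chain, at 0.29 log2 units, female over male (standard error 0.16).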
